A study of Mus musculus with 10 samples.

Results

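Potassium channel genes were examined in the prefrontal cortex of mice exposed to hypobaric hypoxia, with or without photobiomodulation afterwards. The genes were all those whose symbol begins with Kcn, other than the small-conductance channel genes Kcnn1, Kcnn2 and Kcnn3, with a mean of at least 0.1 FPKM over 10 libraries. FPKM scales the fragments of a gene by a length assigned to it and by the depth of the library. This rule took 73 of 82 such genes, out of 15914 protein-coding genes in the deposited table. Just outside it lay Kcnmb2 with a mean of 0.096 FPKM, and just inside it Kcnmb1 with 0.147 FPKM. The other 8 genes under the minimum had means between 0.0285 FPKM (Kcnq1) and 0.0847 FPKM (Kcnj5).

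All libraries came from wild-type C57BL/6J mice. The first group, labelled as control, held 5 libraries from mice exposed to hypobaric hypoxia and is called hypoxia here. The second, labelled as intervention, held 5 libraries from mice given photobiomodulation after the same kind of exposure, and is called hypoxia + PBM. Photobiomodulation is the exposure of tissue to red or near-infrared light. Both groups thus carried the hypoxia, no normoxic libraries were analysed, and each difference below compares hypoxia + PBM with hypoxia alone. No age, sex, light dose or length of exposure is given in the sources used. The labels do not say whether each library is a separate mouse, so the p-values measure only how far libraries differ, and that spread may be technical.

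Potassium channels let K+ leave the cell, which sets the resting potential, ends the action potential and limits repetitive firing. Voltage-gated alpha subunits form tetramers that open on depolarisation, and their silent relatives conduct only when joined to Kv2 subunits. Inward rectifiers and tandem-pore channels carry current near rest, and calcium- or sodium-activated channels follow the ions that enter during spikes. Auxiliary subunits such as the Kcnab, Kcnip, Kcne and Kcnmb proteins change the gating and trafficking of the pore subunits. In cortex these genes are divided between excitatory neurons, interneurons, glia, vessels and choroid plexus.

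The libraries held between 29283937 and 35957148 reads on the listed genes, recovered as whole numbers from the FPKM columns, so the least abundant member, Kcnmb1, still had a mean of 21 reads. The marker sums of cortical neurons, interneurons, glia and vessels were above 0 in every library. Markers of striatal medium spiny neurons, a cell class outside the cortex, were also present: their summed level was 612 ± 137 FPKM (SD, n = 5) in hypoxia and 311 ± 62.1 FPKM in hypoxia + PBM, and 16 of 17 of these markers were called lower. This sum did not overlap between the groups. In bulk tissue, fewer cells of a type and less RNA per cell cannot be told apart. Striatal marker level and group cannot be told apart for any gene that both tissues express. The values of a fit with that marker level as a covariate are given for many of the named genes, but not for all.

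Of the 73 potassium channel genes, 4 differed between the groups at an adjusted p under 0.05 (limma-trend on log2(FPKM + 1), two-sided, Benjamini-Hochberg over 14406 tested genes). That is 5.48% of them, beside 2.85% of all tested genes. Kcnj9 and Kcns3 were higher in hypoxia + PBM, 2.74% of the members beside 1.15% of all tested genes. Kcnk2 and Kcna5 were lower, 2.74% beside 1.7%. These 4 genes belong to 4 different kinds of subunit: a G protein-gated inward rectifier, a silent subunit, a tandem-pore channel and a voltage-gated alpha subunit.

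Kcnk2 encodes TREK-1, a tandem-pore channel that carries background current and opens with membrane stretch, warmth, polyunsaturated fatty acids and volatile anaesthetics. Its levels in hypoxia libraries 1 to 5 were 18.4, 17.1, 18.1, 16.3 and 18.3 FPKM, and in hypoxia + PBM libraries 1 to 5 they were 13.2, 14.1, 13.7, 15.1 and 14.1 FPKM. Every hypoxia + PBM library lay below every hypoxia library, and the closest were hypoxia library 4 and hypoxia + PBM library 4. The mean fell from 17.6 ± 0.874 to 14.03 ± 0.671 FPKM (SD, n = 5 each). The log2 change was −0.31 with a standard error of 0.044 (limma adjusted p = 0.00481). Kcnk2 was the only member that passed the test with each of the 10 libraries left out in turn, where its limma adjusted p reached at most 0.0176. With the striatal marker level as a covariate its log2 change was −0.17 and its limma adjusted p was 0.792.

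Kcnj9 encodes GIRK3, a subunit of the G protein-gated channels that GABA-B and other inhibitory receptors open. It was the second most abundant member on the FPKM scale. Its levels were 36.5, 33.3, 32.8, 36.9 and 35.9 FPKM in hypoxia and 39.8, 41.5, 43.5, 44.3 and 37.8 FPKM in hypoxia + PBM. The groups did not overlap, although only a small gap separated hypoxia + PBM library 5 from hypoxia library 4. The mean rose from 35.1 ± 1.89 to 41.4 ± 2.65 FPKM, a log2 change of 0.23 with a standard error of 0.049 (limma adjusted p = 0.0247). The call was kept when hypoxia library 1 or 4 or hypoxia + PBM library 1 or 5 was left out. It was lost without hypoxia library 2, 3 or 5 or hypoxia + PBM library 2, 3 or 4, with limma adjusted p-values between 0.0502 and 0.0637. With the striatal covariate the log2 change was 0.14 (limma adjusted p = 0.895).

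Kcns3 encodes Kv9.3, a silent subunit that joins Kv2 channels and is known in human cortex from parvalbumin interneurons. Its levels were 1.67, 1.44, 1.68, 1.97 and 1.52 FPKM in hypoxia and 2.02, 2.70, 2.26, 2.14 and 2.23 FPKM in hypoxia + PBM. The groups did not overlap, and hypoxia + PBM library 2 was the highest. The mean rose from 1.66 ± 0.201 to 2.27 ± 0.256 FPKM, a log2 change of 0.30 with a standard error of 0.066 (limma adjusted p = 0.0306). The call was kept without hypoxia library 4 or hypoxia + PBM library 1, 4 or 5. It was lost without hypoxia library 1, 2, 3 or 5 or hypoxia + PBM library 2 or 3, with limma adjusted p-values between 0.0555 and 0.0786. With the striatal covariate the log2 change was 0.20 (limma adjusted p = 0.895).

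Kcna5 encodes Kv1.5, a delayed rectifier best known from human atrium, vascular smooth muscle and microglia. Its levels were 2.56, 1.93, 1.64, 1.36 and 3.09 FPKM in hypoxia and 0.936, 1.08, 0.655, 1.38 and 1.03 FPKM in hypoxia + PBM. The groups overlapped in a single pair, since hypoxia library 4 lay just under hypoxia + PBM library 4. The mean fell from 2.12 ± 0.700 to 1.01 ± 0.261 FPKM. The log2 change was −0.61 with a standard error of 0.135 (limma adjusted p = 0.0309), the largest change among the 73 genes in this fit. The call was kept without hypoxia library 3 or 4 or hypoxia + PBM library 4. It was lost without hypoxia library 1, 2 or 5 or hypoxia + PBM library 1, 2, 3 or 5, with limma adjusted p-values between 0.0502 and 0.0773.

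The striatal marker sums beside these Kcna5 values were 647, 541, 724, 410 and 738 FPKM in hypoxia and 300.1, 322, 210.2, 356 and 366 FPKM in hypoxia + PBM. The library with the highest striatal sum, hypoxia library 5, also had the most Kcna5, and the library with the lowest, hypoxia + PBM library 3, had the least. Hypoxia library 3 departed from this order, with the second highest sum and a middling Kcna5 level. Hypoxia + PBM library 5 departed as well, with the highest sum of its group and less Kcna5 than hypoxia + PBM libraries 2 and 4. With the striatal covariate, the log2 change of Kcna5 was −0.07 (limma adjusted p = 0.993).

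**Figure D1:**
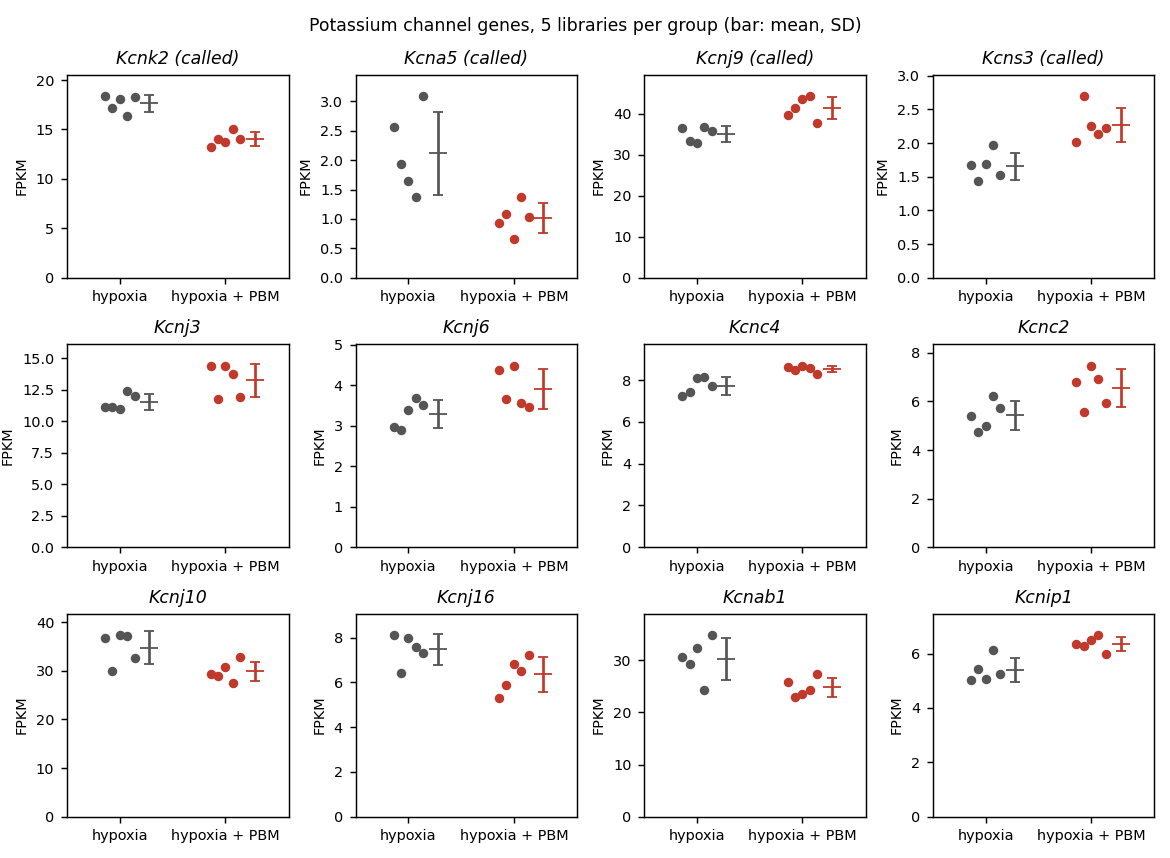
FPKM of 12 potassium channel genes in each library (grey, hypoxia; red, hypoxia + PBM; 5 libraries each), with the mean and SD of each group as a bar beside the points; every vertical axis starts at 0. The groups are separate for Kcnk2, Kcnj9, Kcns3 and Kcnc4 and overlap for the other 8 genes.

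The promoters of the 4 called genes are shown for their base composition. They come from RefSeq (GRCm38.p6), cover 250 bases before to 50 bases after the start, and are written 5′ to 3′ on the strand of the gene with each CG dinucleotide in capitals. Where RefSeq gives several starts, the window with the most CG dinucleotides is shown, which gave a choice for Kcnk2 (4 windows) and Kcns3 (2 windows) and none for Kcnj9 and Kcna5. Promoter windows were found for 52 of the 73 members.
Kcnk2, chr1:189343304-189343603, minus strand: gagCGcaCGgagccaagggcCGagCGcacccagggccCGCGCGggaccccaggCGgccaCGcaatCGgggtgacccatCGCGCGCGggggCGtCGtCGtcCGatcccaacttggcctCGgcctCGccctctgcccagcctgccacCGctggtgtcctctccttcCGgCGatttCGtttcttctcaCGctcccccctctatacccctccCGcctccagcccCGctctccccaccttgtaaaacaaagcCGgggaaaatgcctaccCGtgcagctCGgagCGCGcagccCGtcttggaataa
Kcnj9, chr1:172329273-172329572, minus strand: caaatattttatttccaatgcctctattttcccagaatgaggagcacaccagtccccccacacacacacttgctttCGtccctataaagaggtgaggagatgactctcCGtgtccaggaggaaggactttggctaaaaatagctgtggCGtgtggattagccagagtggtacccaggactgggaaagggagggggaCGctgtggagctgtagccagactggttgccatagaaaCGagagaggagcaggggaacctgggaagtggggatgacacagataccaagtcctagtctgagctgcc
Kcns3, chr12:11150324-11150623, minus strand: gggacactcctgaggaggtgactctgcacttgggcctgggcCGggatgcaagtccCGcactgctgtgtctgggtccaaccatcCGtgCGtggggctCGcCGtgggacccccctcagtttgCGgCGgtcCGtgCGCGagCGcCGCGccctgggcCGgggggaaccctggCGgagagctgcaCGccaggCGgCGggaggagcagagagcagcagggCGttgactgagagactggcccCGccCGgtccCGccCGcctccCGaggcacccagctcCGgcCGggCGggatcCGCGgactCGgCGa
Kcna5, chr6:126535506-126535805, minus strand: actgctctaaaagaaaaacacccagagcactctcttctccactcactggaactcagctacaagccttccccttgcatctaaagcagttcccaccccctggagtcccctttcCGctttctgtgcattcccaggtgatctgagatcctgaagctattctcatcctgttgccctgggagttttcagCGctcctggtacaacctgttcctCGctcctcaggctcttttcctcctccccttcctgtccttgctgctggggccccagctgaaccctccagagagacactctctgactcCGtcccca

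The Kcnk2 window held 33 CG dinucleotides at a GC content of 68.7%, and the Kcns3 window held 32 at 74.0%. The Kcnj9 window held 5 at 52.3%, and the Kcna5 window held 4 at 55.0%. The median over 32851 windows in the RefSeq table was 7, and over the members' 75 windows it was 9. These medians are over all windows, while the Kcnk2 and Kcns3 windows were chosen as their richest; across their own windows the CG count ran from 3 to 33 for Kcnk2 and from 9 to 32 for Kcns3. A search of both strands found none of the letters CACGTG (E-box), ACGTG (a form of the core of the hypoxia response element, contained in the E-box), TGACGTCA (CRE) or TGACTCA (AP-1) in these 4 windows. Among all windows, 7.15%, 19.6%, 1.79% and 5.2% held them, and among the members' windows 8%, 17.3%, 0% and 2.67%. The letters GCGTG, another form of that core, were not part of the search and were not counted over all windows. GCGTG can be read in the Kcnj9 and Kcns3 windows as printed, and on the opposite strand of the Kcnk2 window.

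By the non-overlap of the 5 and 5 libraries, 4 members stood apart, or 5.48%, against 5.53% of all tested genes, so the members were at the background by this measure. Kcnj9, Kcns3 and Kcnc4 were higher (4.11% beside 2.67%) and Kcnk2 was lower (1.37% beside 2.87%). At an unadjusted limma p under 0.05 there were 29 members, 39.7% beside 19.6% of all tested genes. Of these, 20 had a positive log2 change (27.4% beside 9.46%) and 9 a negative change (12.3% beside 10.1%). The authors' deposited table called 11 of the 73 at q under 0.05, which is 15.1% beside 6.4% of its 15914 genes. In the authors' deposited table, 7 of these were higher (Kcnj9, Kcns3, Kcnip1, Kcnc2, Kcnc4, Kcnj3 and Kcnj6; 9.59% beside 3.02%) and 4 were lower (Kcnk2, Kcna5, Kcnab1 and Kcnj10; 5.48% beside 3.39%). The 4 genes called here were among these 11, with log2 fold changes in the authors' deposited table of −0.33 for Kcnk2, −1.06 for Kcna5, 0.24 for Kcnj9 and 0.45 for Kcns3.

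The direction of the estimates, whether called or not, was counted by kind of subunit. The log2 change was positive for 50 of the 73 members, with a median of 0.043, while 50.03% of all tested genes were positive with a median of 0.00011. Among the 26 conducting voltage-gated alpha subunits, 24 were positive with a median of 0.10. The silent subunits had 6 of 9 positive with a median of 0.11. Tandem-pore channels had 7 of 10 positive with a median of 0.019, and the inward rectifiers 5 of 12 with a median of −0.055. The auxiliary subunits were evenly divided, 6 positive and 6 negative, with a median of −0.026. These counts describe estimates that mostly did not pass the test, and with the striatal covariate the positive count was 36 of 73 and that of the voltage-gated alpha subunits 13 of 26.

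**Figure D2:**
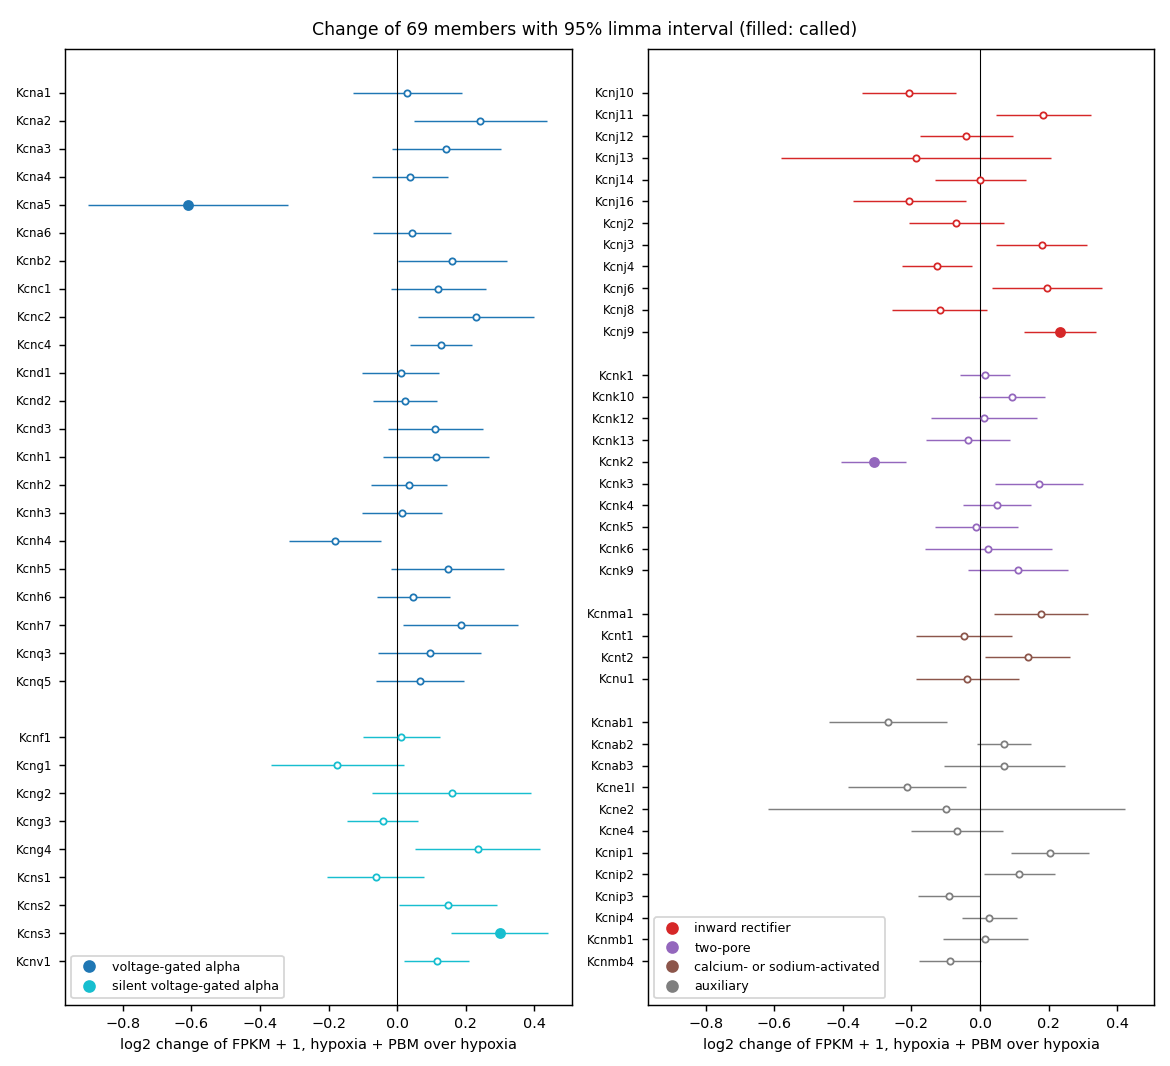
Log2 change of FPKM + 1 (hypoxia + PBM over hypoxia) of 69 of the 73 genes with its 95% limma interval, grouped and coloured by kind of subunit; filled points are the 4 called genes. Of the voltage-gated alpha subunits drawn, all but Kcna5 and Kcnh4 lie to the right of 0, while the inward rectifiers lie on both sides.

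Within the Kv1 subfamily, Kcna5 was the exception in direction. Kcna1, Kcna2 and Kcna6 encode the axonal and juxtaparanodal Kv1 channels of cortical neurons. Kcna1, the most abundant Kv1 gene, had levels of 24.4, 20.7, 23.5, 26.7 and 24.99 FPKM in hypoxia and 26.0, 22.0, 28.3, 24.5 and 22.2 FPKM in hypoxia + PBM. These groups lay across each other, with a log2 change of 0.03 (limma adjusted p = 0.864). Kcna2 had 15.9, 13.2, 14.5, 18.6 and 17.3 FPKM in hypoxia and 20.9, 17.1, 21.1, 19.3 and 16.4 FPKM in hypoxia + PBM. It was the highest of the conducting Kv genes in log2 change, at 0.24, but the groups overlapped (limma adjusted p = 0.159). This log2 change was 0.03 with the striatal covariate (limma adjusted p = 0.998). Kcna3, Kcna4 and Kcna6 had log2 changes between 0.04 and 0.14. The 3 genes Kcna5, Kcna1 and Kcna6 lie side by side on chromosome 6 in the GENCODE annotation, where Kcna6 had a log2 change of 0.04.

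The Kv3 genes encode the fast channels that let interneurons fire at high rates, and all 4 had positive estimates. Kcnc4 had 7.23, 7.42, 8.12, 8.17 and 7.70 FPKM in hypoxia and 8.63, 8.48, 8.69, 8.58 and 8.28 FPKM in hypoxia + PBM. Its groups did not overlap, and its hypoxia + PBM libraries lay close together (SD 0.158 FPKM). Its log2 change was 0.13 (limma adjusted p = 0.116). Kcnc2 had 5.42, 4.74, 5.01, 6.24 and 5.73 FPKM in hypoxia and 6.81, 5.57, 7.46, 6.94 and 5.95 FPKM in hypoxia + PBM. Its groups overlapped (log2 change 0.23, limma adjusted p = 0.129). The log2 changes with the striatal covariate were 0.08 for Kcnc4 and 0.04 for Kcnc2 (limma adjusted p = 0.97 and 0.995). Kcnc1, at a mean of 14.3 FPKM, had a log2 change of 0.12. Beside them, the summed level of 4 fast-spiking interneuron markers was 154 ± 5.75 FPKM in hypoxia and 161 ± 6.17 FPKM in hypoxia + PBM (two-sided exact permutation p = 0.0952, 0.127 adjusted over 12 lists), and its part in these values was not tested.

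Kcnb2 encodes a Kv2 subunit, a partner of Kcns3 in somatodendritic delayed-rectifier channels. It had 0.773, 0.929, 0.874, 1.16 and 1.06 FPKM in hypoxia and 1.48, 0.935, 1.28, 1.25 and 1.02 FPKM in hypoxia + PBM. The groups overlapped at this low level (log2 change 0.16, limma adjusted p = 0.251). Its log2 change was 0.01 with the striatal covariate (limma adjusted p = 0.998).

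The Kv4 genes encode the A-type channels of dendrites. Kcnd3 had a mean of 4.23 ± 0.375 FPKM in hypoxia and 4.65 ± 0.412 FPKM in hypoxia + PBM, a log2 change of 0.11 (limma adjusted p = 0.363). Kcnd2 and Kcnd1 had log2 changes of 0.02 and 0.01.

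The Kv7 genes encode the M-type channels that muscarinic receptors close. Kcnq3 and Kcnq5 had log2 changes of 0.09 and 0.07, and neither passed the test.

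In the EAG, ERG and ELK family, Kcnh4 was the only gene of 7 with a negative estimate. Kcnh4 encodes an ELK channel of the forebrain that is abundant in striatum. Its levels were 2.82, 2.45, 2.59, 2.46 and 2.30 FPKM in hypoxia and 2.41, 2.09, 2.05, 2.24 and 1.76 FPKM in hypoxia + PBM. All 5 hypoxia + PBM libraries lay below the hypoxia median, but the groups overlapped (log2 change −0.18, limma adjusted p = 0.132). With the striatal covariate its log2 change was −0.20 (limma adjusted p = 0.895). Kcnh3, its relative and the most abundant of the 7, had means of 32.9 ± 1.68 and 33.3 ± 2.64 FPKM and a log2 change of 0.01. The other 5 genes had log2 changes between 0.03 and 0.19, the highest in Kcnh7, and limma adjusted p-values from 0.208 upward.

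Among the silent subunits, Kcnf1 was by far the most abundant. It encodes Kv5.1, and its means were 26.7 ± 2.33 and 26.9 ± 0.789 FPKM with a log2 change of 0.01 (limma adjusted p = 0.924). Kcng4 had 1.14, 1.00, 1.08, 1.63 and 0.934 FPKM in hypoxia and 1.46, 1.28, 1.89, 1.58 and 1.45 FPKM in hypoxia + PBM. Only hypoxia library 4 reached into the range of hypoxia + PBM (log2 change 0.23, limma adjusted p = 0.147). Without that library Kcng4 passed the test (limma adjusted p = 0.0275), but calls over all tested genes also rose from 411 to 538. Kcng4 passed in only 1 of the 10 fits with a library left out, with limma adjusted p up to 0.284. Its log2 change was −0.095 with the striatal covariate (limma adjusted p = 0.975). Kcnv1, at a mean of 9.2 FPKM, had a log2 change of 0.11 (limma adjusted p = 0.175). Kcng1 and Kcns1, the most abundant Kv6 and Kv9 genes, had log2 changes of −0.17 (limma adjusted p = 0.307) and −0.06 (limma adjusted p = 0.642).

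Of the 12 inward rectifier genes, limma called Kcnj9 alone. The G protein-gated subunits other than Kcnj9 are Kcnj3, the GIRK1 subunit shared by most such channels, and Kcnj6, the GIRK2 subunit. Kcnj3 had 11.1, 11.2, 11.01, 12.4 and 12.1 FPKM in hypoxia and 14.4, 11.8, 14.4, 13.7 and 11.9 FPKM in hypoxia + PBM. Kcnj6 had 2.97, 2.90, 3.39, 3.68 and 3.51 FPKM in hypoxia and 4.39, 3.67, 4.48, 3.57 and 3.46 FPKM in hypoxia + PBM. Both were highest in hypoxia + PBM libraries 1 and 3 and overlapped between the groups. Their log2 changes were 0.18 for Kcnj3 and 0.19 for Kcnj6, with limma adjusted p-values of 0.131 and 0.171, while the authors' deposited table gave q-values of 0.0432 and 0.0487. These log2 changes were 0.03 for Kcnj3 and 0.0045 for Kcnj6 with the striatal covariate (limma adjusted p = 0.996 and 0.998). The fourth subunit, Kcnj5, lay under the level minimum. Of the GABA-B receptor subunits that open these channels, Gabbr2 had a log2 change of 0.22 (limma adjusted p = 0.0719) and Gabbr1 one of 0.02. That of Gabbr2 was 0.07 with the striatal covariate (limma adjusted p = 0.987).

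Kcnj11, the Kir6.2 pore of the neuronal ATP-sensitive channel, had 11.8, 10.7, 9.90, 10.7 and 10.3 FPKM in hypoxia. It had 12.95, 12.9, 12.4, 13.0 and 10.2 FPKM in hypoxia + PBM. Of the hypoxia + PBM libraries, 4 lay above all hypoxia libraries and the fifth lay inside them. The log2 change was 0.18 (limma adjusted p = 0.136). Without hypoxia + PBM library 5 Kcnj11 passed the test (limma adjusted p = 0.0235), the only 1 of the 10 fits with a library left out in which it did. The log2 change of Kcnj11 was 0.10 with the striatal covariate (limma adjusted p = 0.975). Its regulatory subunit gene Abcc8, the sulfonylurea receptor and neighbour of Kcnj11 on chromosome 7, had a log2 change of 0.04. Kcnj8, the Kir6.1 pore of mural cells, had a log2 change of −0.12 (limma adjusted p = 0.337), beside a mural marker sum of 35.9 ± 4.77 FPKM in hypoxia and 41.6 ± 2.47 FPKM in hypoxia + PBM.

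Kcnj10 and Kcnj16 encode Kir4.1 and Kir5.1, the channels by which astrocytes and oligodendrocytes take up K+. Kcnj10 had 36.8, 29.96, 37.3, 37.2 and 32.7 FPKM in hypoxia and 29.4, 28.95, 30.8, 27.6 and 32.8 FPKM in hypoxia + PBM. Kcnj16 had 8.10, 6.40, 7.99, 7.59 and 7.29 FPKM in hypoxia and 5.30, 5.90, 6.84, 6.51 and 7.23 FPKM in hypoxia + PBM. In both, hypoxia library 2 was the lowest of its group and reached into the range of hypoxia + PBM. Their log2 changes were both −0.21, with limma adjusted p-values of 0.0979 for Kcnj10 and 0.157 for Kcnj16. Without hypoxia library 2, Kcnj10 passed the test (limma adjusted p = 0.0351), the only 1 of the 10 fits with a library left out in which it did. The authors' deposited table gave Kcnj10 a q-value of 0.0236. With the striatal covariate the log2 changes were −0.23 for Kcnj10 and −0.16 for Kcnj16 (limma adjusted p = 0.859 and 0.95). The summed astrocyte markers were 430 ± 20.5 FPKM in hypoxia and 457 ± 23.6 FPKM in hypoxia + PBM (two-sided exact permutation p = 0.0794, 0.127 adjusted). Within hypoxia + PBM, Kcnj10 rose in the order of this sum, from library 4 (422 FPKM) to library 5 (484 FPKM). Within hypoxia it did so apart from library 1, which had the lowest sum (411 FPKM). The sum is weighted by Slc1a2, a glutamate transporter gene with a mean of 206 FPKM, and its 6 genes did not move one way. Limma called Slc1a2 (log2 change 0.21) and Aldh1l1 (0.27) higher, and Slc1a3 had a log2 change of 0.09. Aqp4 (−0.28), Gja1 (−0.14) and Gfap (−0.16) had negative estimates like that of Kcnj10 and did not pass the test. The oligodendrocyte markers were 1271 ± 87.1 and 1169 ± 73.02 FPKM (two-sided exact permutation p = 0.0873, 0.127 adjusted). Kcnj10 and Kcnj9 are next to each other on chromosome 1 with their starts facing apart on opposite strands, and their estimates had opposite signs.

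Kcnj4, the Kir2.3 channel of forebrain neurons, had 18.4, 16.9, 16.3, 16.3 and 19.1 FPKM in hypoxia and 15.8, 16.5, 16.02, 15.9 and 15.02 FPKM in hypoxia + PBM. The groups overlapped slightly (log2 change −0.13, limma adjusted p = 0.162). Its hypoxia level was highest in libraries 1 and 5, of which library 5 also had the highest striatal marker sum. Hypoxia library 3, with the second highest sum (724 FPKM), had the lowest Kcnj4 level of its group. That level was close to the one in hypoxia library 4, which had the lowest sum (410 FPKM). With the striatal covariate the log2 change of Kcnj4 was −0.07 (limma adjusted p = 0.977). The other Kir2 genes Kcnj2 and Kcnj12 had log2 changes of −0.07 and −0.04, and Kcnj14 had a log2 change of 0.00.

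Kcnj13 and Kcne2 varied with the summed choroid plexus markers of each library, within both groups. Kcnj13 encodes Kir7.1 and Kcne2 a single-span subunit, both known from choroid plexus epithelium. Kcne2 had 0.210, 0.762, 1.98, 0.855 and 1.05 FPKM in hypoxia and 1.54, 1.11, 0.850, 0.0169 and 0.706 FPKM in hypoxia + PBM. The summed choroid plexus markers were 87.5, 423, 635, 465 and 348 FPKM in hypoxia and 470, 332, 389, 8.58 and 243 FPKM in hypoxia + PBM. The library with the fewest markers and the least Kcne2 was hypoxia + PBM library 4, followed by hypoxia library 1, and the most of both were in hypoxia library 3. Kcnj13 had 0.310, 1.13, 1.67, 1.20 and 0.973 FPKM in hypoxia and 1.32, 0.859, 0.7997, 0.202 and 0.817 FPKM in hypoxia + PBM, with the same lowest and highest libraries. The within-group coefficient of variation was 66.4% for Kcne2 and 48.1% for Kcnj13, against a median of 10.1% over the members and 7.9% over all tested genes. Neither differed between the groups beyond this spread (limma adjusted p = 0.864 for Kcne2 and 0.614 for Kcnj13).

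**Figure D3:**
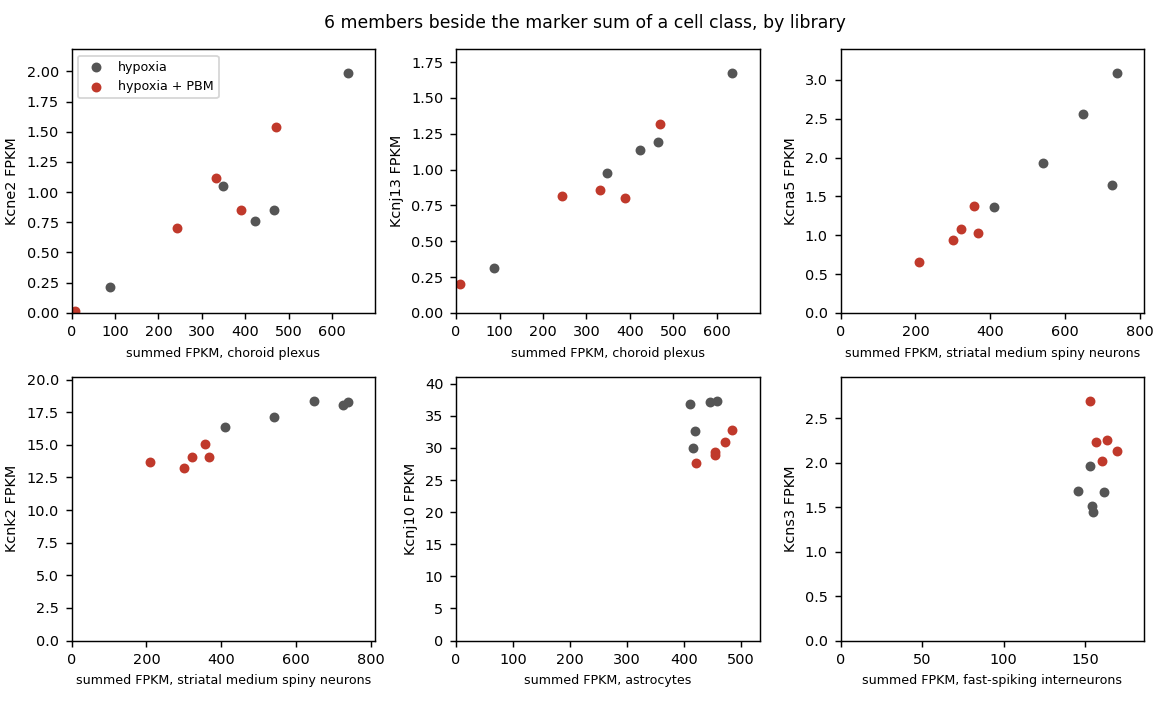
FPKM of 6 potassium channel genes (vertical) against the summed FPKM of a cell-class marker list (horizontal) in each library; grey, hypoxia; red, hypoxia + PBM; all axes start at 0. Kcne2 and Kcnj13 follow the choroid plexus sum across both groups, and Kcna5 and Kcnk2 are lowest in the libraries with little striatal marker RNA. Kcnj10 rises with the astrocyte sum within hypoxia + PBM and, apart from library 1, within hypoxia, with a lower mean in hypoxia + PBM. Kcns3 shows no such order with the fast-spiking sum.

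Apart from Kcnk2, limma called 0 tandem-pore channel genes and the authors' deposited table also 0, with 1 other gene (Kcnk3) at an unadjusted limma p under 0.05. Kcnk1 encodes TWIK-1 and was the most abundant of them, with 22.5, 22.0, 22.6, 22.5 and 23.4 FPKM in hypoxia and 24.0, 22.4, 23.3, 21.8 and 22.7 FPKM in hypoxia + PBM. Its log2 change was 0.01, with a 95% limma interval from −0.06 to 0.09. Kcnk13, the THIK-1 channel of microglia, had a log2 change of −0.04 (limma adjusted p = 0.777), and Kcnk6, which encodes TWIK-2 and is known from macrophages, one of 0.02 (limma adjusted p = 0.910). The summed microglial markers beside them were 205 ± 13.1 and 196 ± 15.1 FPKM. The other 6 had log2 changes between −0.01 and 0.17, the highest in Kcnk3, which encodes the acid-sensitive TASK-1 channel (limma adjusted p = 0.138).

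Kcnma1 encodes the pore of the large-conductance calcium-activated BK channel. It had 11.8, 11.1, 12.2, 13.0 and 13.2 FPKM in hypoxia and 14.8, 12.4, 15.6, 14.4 and 12.9 FPKM in hypoxia + PBM. The groups overlapped (log2 change 0.18, limma adjusted p = 0.145). The log2 change of Kcnma1 was 0.07 with the striatal covariate (limma adjusted p = 0.987). The accessory BK gamma subunit gene Lrrc55, which is no Kcn gene, was called higher. Lrrc55 had 3.26, 2.93, 3.61, 3.74 and 3.10 FPKM in hypoxia and 4.25, 3.88, 4.77, 4.71 and 4.11 FPKM in hypoxia + PBM, with no overlap. Its log2 change was 0.31 with a standard error of 0.066 (limma adjusted p = 0.0274). The call was kept without hypoxia library 3 or 4 or hypoxia + PBM library 2 or 5, and lost without any of the other 6, with limma adjusted p-values between 0.0583 and 0.0728. With the striatal covariate the log2 change of Lrrc55 was 0.19 (limma adjusted p = 0.907). The neuronal BK beta subunit gene Kcnmb4 had means of 23.8 ± 0.653 and 22.4 ± 1.38 FPKM (log2 change −0.09, limma adjusted p = 0.274). The sodium-activated channel genes Kcnt1 and Kcnt2 had log2 changes of −0.05 and 0.14, and Kcnu1, a BK relative known from sperm, one of −0.04.

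Of the 12 auxiliary subunits, limma called 0 and 5 had an unadjusted limma p under 0.05, while the authors' deposited table called Kcnip1 and Kcnab1. Kcnab1 encodes the beta subunit that gives Kv1 channels fast inactivation. It had 30.6, 29.2, 32.3, 24.2 and 34.7 FPKM in hypoxia and 25.8, 22.9, 23.4, 24.3 and 27.4 FPKM in hypoxia + PBM. Hypoxia library 4 alone lay within the range of hypoxia + PBM (log2 change −0.27, limma adjusted p = 0.0898). Without it Kcnab1 passed the test (limma adjusted p = 0.00909), which it did in only 1 of the 10 fits with a library left out. Hypoxia library 4 also had the lowest striatal marker sum of its group, and with the striatal covariate the log2 change of Kcnab1 was 0.07 (limma adjusted p = 0.981). Kcnab2, the most abundant of all 73 members, had means of 61.4 ± 1.24 and 64.6 ± 3.28 FPKM (log2 change 0.07, limma adjusted p = 0.318), and Kcnab3 had a log2 change of 0.07.

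Kcnip1 encodes the calcium-binding KChIP1 partner of Kv4 channels, known from interneurons. It had 5.04, 5.45, 5.07, 6.13 and 5.27 FPKM in hypoxia and 6.34, 6.29, 6.49, 6.67 and 5.98 FPKM in hypoxia + PBM. Hypoxia library 4 alone exceeded the lowest hypoxia + PBM library, number 5. The log2 change was 0.20 with a standard error of 0.052, just outside the threshold (limma adjusted p = 0.0548). Without hypoxia library 4 it passed the test (limma adjusted p = 0.0146), the only 1 of the 10 fits with a library left out in which it did. The log2 change of Kcnip1 was 0.05 with the striatal covariate (limma adjusted p = 0.987). Kcnip1 overlaps Kcnmb1 on the opposite strand, and the sources used here do not say whether counting used strand, so reads where they overlap cannot be assigned with certainty. Kcnip2, the most abundant KChIP gene, had means of 33.6 ± 2.38 and 36.4 ± 1.58 FPKM (log2 change 0.11, limma adjusted p = 0.205). Kcnip3 and Kcnip4 had log2 changes of −0.09 and 0.03. Kcne1l, whose product modifies Kv7 channels, had a log2 change of −0.21 (limma adjusted p = 0.163).

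**Figure D4:**
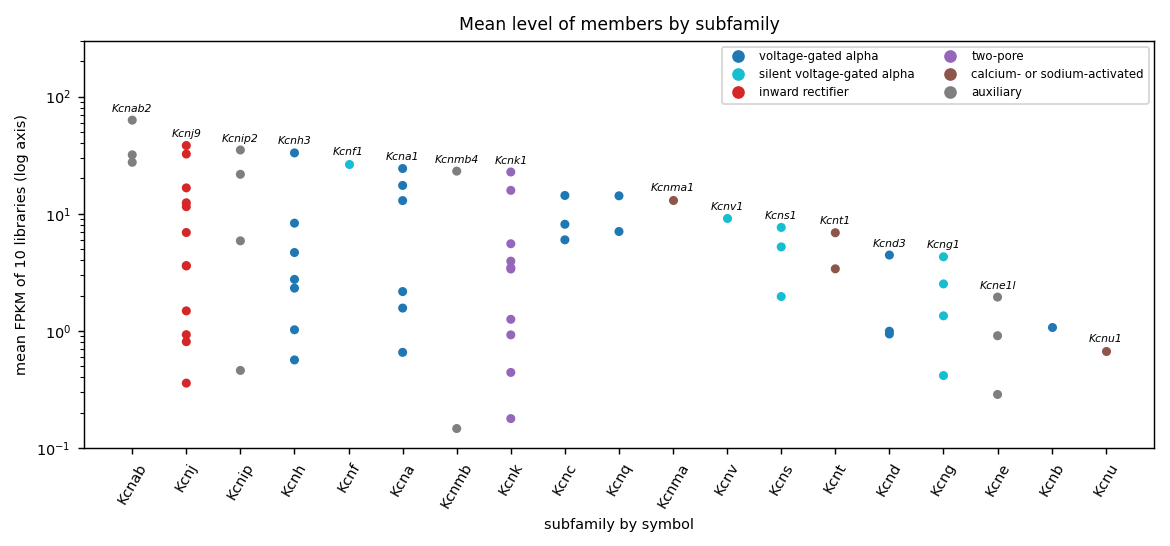
Mean FPKM over the 10 libraries of 69 of the 73 genes on a log axis, by subfamily and coloured by kind of subunit, with the leading gene of most subfamilies named. Levels run from 0.147 FPKM (Kcnmb1) to 63.0 FPKM (Kcnab2), and 6 of the genes drawn lie at or above 30 FPKM.

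Across the whole set, levels were concentrated in a few genes. Of the 73, 24 had a mean of at least 10 FPKM and 16 had less than 1 FPKM. Among the genes named here, the highest were Kcnab2 (63.0 FPKM), Kcnj9 (38.2), Kcnip2 (35.0), Kcnh3 (33.1), Kcnj10 (32.3), Kcnab3 (31.8) and Kcnab1 (27.5 FPKM). Only the step from Kcnab2 to Kcnj9 was larger than the spread between libraries in both groups, and Kcnip2, Kcnh3, Kcnj10 and Kcnab3 overlapped one another. Conducting voltage-gated alpha subunits made up 33.3% of the summed FPKM of the members and auxiliary subunits 29.3%. Inward rectifiers made up 17.8%, silent subunits 8.22%, tandem-pore channels 7.99% and calcium- or sodium-activated channels 3.34%.

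These levels depend on the length used for each gene, and no source used here defines that length. The length implied by FPKM and recovered reads was 166.5 kb for Kcnip4, which had 0.459 FPKM from a mean of 2512 reads. It was 99.3 kb for Kcnd2, with 0.940 FPKM from 3062 reads, 34.6 kb for Kcnh7 and 22.7 kb for Kcnj6. The longest of these are far beyond the usual length of an mRNA, so the FPKM of such genes may understate their level beside other genes. Kcnip2 reached 35.0 FPKM from 3698 reads at an implied length of 3.22 kb. Thus Kcnd2 and Kcnip4 stood under 1 FPKM with about as many reads as genes far above them. The median implied length was 6.05 kb over the members, 9.68 kb over the conducting voltage-gated alpha subunits and 3.78 kb over all tested genes. The log2 change had a Spearman correlation with implied length of 0.19 across the 14406 tested genes and 0.33 across the 73 members. These correlations are across genes of the same libraries, and genes are not independent replicates. The part of length in the positive estimates of the voltage-gated genes was not tested.

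Library medians were compared by kind of subunit. Taken as deviations from each gene's mean over the 10 libraries, the median over the 26 voltage-gated alpha subunits was −0.09, −0.18, −0.06, 0.06 and 0.01 (log2) in hypoxia libraries 1 to 5. In hypoxia + PBM it was 0.11, −0.04, 0.11, 0.07 and −0.02. The groups overlapped: hypoxia library 4 was above hypoxia + PBM libraries 2 and 5. Hypoxia library 2 had the lowest median in the voltage-gated, silent, inward rectifier, tandem-pore and calcium- or sodium-activated groups and the highest in the auxiliary group.

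**Figure D5:**
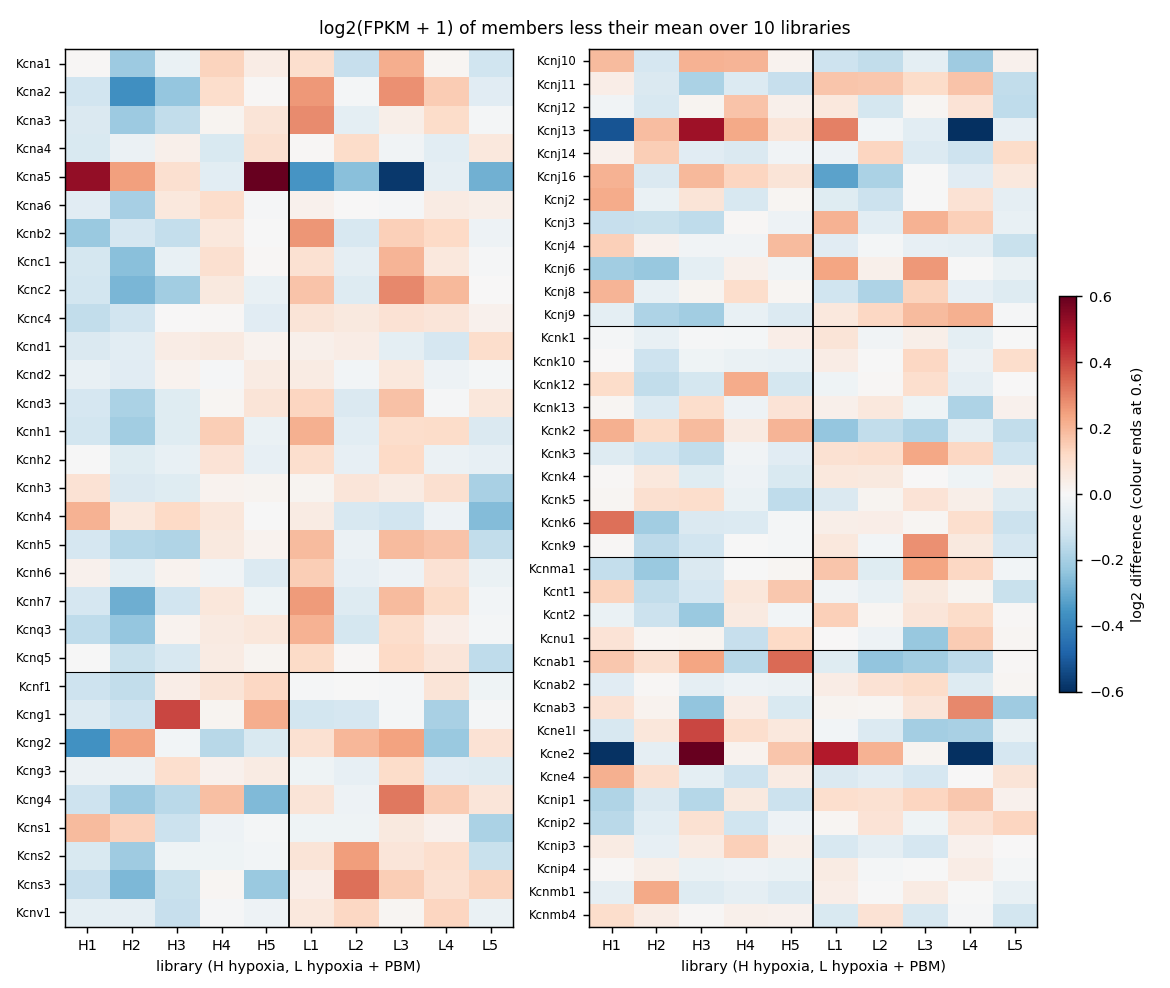
Log2(FPKM + 1) of 69 of the 73 genes, each less its mean over the 10 libraries (red above, blue below; colours end at 0.6), with libraries in columns (H, hypoxia; L, hypoxia + PBM) and genes in rows by kind of subunit. The voltage-gated block is bluest in hypoxia library 2 and reddest in hypoxia + PBM libraries 1 and 3, while Kcne2 and Kcnj13 vary from library to library within both groups.

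The partners of these channels that are not Kcn genes were examined from a list of 33 genes. They comprise the Kv4 partners Dpp6 and Dpp10, the sulfonylurea receptors Abcc8 and Abcc9, the BK gamma subunits, the Kv2 anchors Amigo1 and Vapa, calmodulins, Lgi1, Adam22, Cntnap2, GABA-B receptor subunits and their Kctd partners. Of these, 32 were in the table, 31 were tested and 1, Lrrc55, was called. Among all tested genes 2.85% were called, so this count is no result about the list. The log2 change was positive for 20 of the 31 (64.5%), beside 50.03% of all tested genes. Its median was 0.041, close to the median of the channel genes, beside 0.00011 over all tested genes. Gabbr2 had the second smallest p, with levels of 46.0, 43.6, 47.9, 56.1 and 50.7 FPKM in hypoxia and 59.8, 52.6, 60.7, 58.1 and 54.3 FPKM in hypoxia + PBM, where hypoxia library 4 alone lay inside the other group.

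The marker sums of other cell classes are given for comparison. Endothelial markers summed to 31.3 ± 2.83 FPKM in hypoxia and 36.7 ± 2.56 FPKM in hypoxia + PBM. Upper-layer excitatory neuron markers summed to 162 ± 4.95 and 182 ± 10.8 FPKM, and thalamic markers to 15.3 ± 0.718 and 18.1 ± 1.48 FPKM. For each of these, as for the striatal sum, the two-sided exact permutation p adjusted over 12 lists was 0.0476. All 5 upper-layer markers had positive estimates, but limma called 0 of them. The most abundant, Lamp5, had 82.4 ± 6.77 FPKM in hypoxia and 96.2 ± 7.70 FPKM in hypoxia + PBM. All 6 endothelial markers had positive estimates, and limma called Cldn5 and Tek. Flt1 and Slco1a4 had log2 changes of 0.04 each. All 5 thalamic markers had positive estimates, but limma called only Ramp3, at 10.3 ± 0.857 FPKM in hypoxia and 12.4 ± 0.883 FPKM in hypoxia + PBM. Rora and Lef1 had log2 changes of 0.02 each. Deep-layer excitatory neuron markers summed to 70.5 ± 1.501 and 65.0 ± 5.07 FPKM (adjusted exact permutation p = 0.0762), and somatostatin interneuron markers to 419 ± 30.8 and 391 ± 27.0 FPKM (adjusted exact permutation p = 0.238). Neither passed the test. Of the 5 somatostatin markers 3 had positive estimates, with a median log2 change of 0.01, and the lower sum lay in Sst itself, at 253 ± 20.8 and 224 ± 21.96 FPKM. The part of these cell classes in the values of the voltage-gated and G protein-gated channel genes was not tested.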

How the data were processed

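Per the labels' protocols, prefrontal cortex RNA was extracted with TRIzol and 1.4 ug per sample entered the VAHTS Universal V10 kit. Per the submitters' processing notes, fastp 1.0, HISAT2, HTSeq and the build GRCm39 were used; the sources do not give their order, settings or annotation. Per the file headers, the authors computed FPKM for each gene and library. The authors also deposited group means as a signal (reads divided by DESeq2 size factors), a linear fold change ratio, its log2 value, and p-values and q-values of their own comparison. The signal served to recover the reads behind the FPKM: 100% of values were whole within 0.01.

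Genes with at least 0.1 FPKM in at least 5 libraries (14406) were tested on log2(FPKM + 1) with limma 3.58.1 (R 4.3.3; trended variance, group as the only term, two-sided, Benjamini-Hochberg adjustment over all tested genes, called at adjusted p under 0.05). A fold change on this scale understates the change of low genes. Marker sums were compared by exact permutation over 252 assignments (scipy 1.17.1), which can reach 0.00794 at the lowest. The fits were tested on simulated data. Depth was 29283937 to 35957148 reads per library. No libraries were duplicates: the smallest chi-square per gene between libraries was 5.97. The members and lists were chosen with earlier results of these data known. Named with values were called members, the most abundant member of each subfamily, the member with the smallest p in each subfamily of at least 3, preset members known for a cell class, and the 2 accessory genes with the smallest p; Kcnj3, Kcnj6, Kcnj11, Kcna2, Kcnb2, Kcnd2 and Kcnip4, and ends of ranges, were picked for naming with their values in view. The totals include 4 members that are not reported here singly. Alternatives were the pseudocount, filters, quality weights, other scalings, limma-voom on the recovered reads, a replicate block, the striatal marker mean as a covariate, and leaving out each library. Gene positions are from GENCODE M21 (GRCm38), used for neighbours only.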

Additional observations from a re-analysis of the deposited data

Results flagged for a closer look

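Of 112 sets of 5 libraries examined, 4 held a library far from the other 4 of its group by Dixon's test at the 95% level (a gap above 0.71 of the range), and chance flags about 1 in 20. Kcnf1 was 28.26 FPKM in hypoxia + PBM library 4, above 26.24 to 26.68 FPKM in the others. Kcng4 was 1.631 FPKM in hypoxia library 4, above 0.9338 to 1.136 FPKM in the others. Kcnj11 was 10.22 FPKM in hypoxia + PBM library 5, below 12.41 to 12.99 FPKM in the others. The summed somatostatin interneuron markers were 471.9 FPKM in hypoxia library 2, above 395.8 to 416.8 FPKM in the others.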

How the results depend on the processing

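The count of 4 called members was 4 to 6 under both other pseudocounts, both filters, quality weights, both other scalings and limma-voom on the recovered reads, and Kcnk2, Kcnj9, Kcns3 and Kcna5 were called under each. The calls over all tested genes moved too, from 411 of 14406 in the main fit. They were 358 of 15914 without a filter, 471 of 11424 with the filter at 1 FPKM and 594 of 14406 with voom. Voom called 2 accessory genes. Over the 57 members with a mean of at least 1 FPKM the median log2 change was 0.095. Same-numbered libraries did not deviate together (correlations −0.06, 0.205, −0.07, −0.04 and −0.04, while others reached 0.354). The labels do not say whether the numbers pair the samples, and these correlations cannot exclude it. With the replicate number as a block, 256 of all tested genes and 1 member were called, 0 higher and 1 lower (Kcnk2, limma adjusted p = 0.0311); the limma adjusted p was 0.0579 for Kcnj9, 0.0519 for Kcna5 and 0.0881 for Kcns3. With the striatal marker covariate, limma called 0 of all tested genes and so 0 members, higher or lower, and 0 accessory genes, with 855 genes and 4 members at an unadjusted p under 0.05. The members' median log2 change was then −0.0013, and Kcna1 (−0.165), Kcnab1 (0.071), Kcnab2 (−0.020), Kcnc1 (−0.022), Kcng4 (−0.095), Kcnh3 (−0.046), Kcnk13 (0.031) and Kcnu1 (0.26) changed sign, each with a limma adjusted p of at least 0.737. The cause was not tested.

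With each library left out in turn, 1 to 7 members were called, 0 to 4 of them higher and 1 to 3 lower. Of the accessory genes 0 to 2 were called, and of all tested genes 189 to 538. Between 5 and 11 members had groups that did not overlap. Non-overlap is easier for any gene with fewer libraries, and its share over all tested genes was not counted here. The range is thus no result about the members. The most calls came without hypoxia library 4. Of the named genes, 8 with log2 changes near 0 changed sign: Kcna1 (−0.021 to 0.068), Kcne2 (−0.26 to 0.10), Kcnf1 (−0.023 to 0.045), Kcnh3 (−0.0077 to 0.065), Kcnk13 (−0.060 to 0.0059), Kcnk1 (−0.0038 to 0.030), Kcnk6 (−0.025 to 0.11) and Kcnu1 (−0.080 to 0.016). The planned search of the members' proteins for the pore signature was not run. Low members limit precision: Kcnmb1 rested on a mean of 21 reads.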
